A study of Homo sapiens with 8 samples.

Results

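The response of C4-2 cells to transfection of the microRNA (miRNA) miR-199-3p was measured on 1 of the 8 two-colour arrays of the series, chosen by its transfection label. C4-2 is a castration-resistant prostate cancer line derived from LNCaP. Cy3-labelled RNA came from mock C4-2 cells, which the labels give as not transfected, and Cy5-labelled RNA came from C4-2 cells given miR-199-3p with a lipid reagent, Lipofectamine RNAiMAX. No cells given a control miRNA were on the array, and the labels state neither the dose nor the time. The other 7 arrays held bisamide, a small molecule, at 24 h and 48 h in the prostate line PC3, and 5 further miRNA transfections. These were miR-140-3p as well as miR-140-5p given to the bladder line T24, miR-532-3p as well as miR-532-5p given to the renal line 786-O, and miR-125b-1-3p given to PC3 cells. Each was set against mock RNA in Cy3, and they are used here to show how a probe behaved without miR-199-3p. No other array held C4-2, so a difference between arrays cannot be told apart from a difference between cell lines. There was no replicate and no dye swap, and therefore no test was made. All values are log2 ratios of miR-199-3p over mock unless stated otherwise.

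A miRNA guides the silencing complex, built around an Argonaute protein, to messenger RNAs that pair with its seed, bases 2 to 8 from the 5′ end. Pairing usually lies in the 3′ untranslated region and lowers the messenger RNA, its translation, or both. miR-199a-3p and miR-199b-3p are made from 3 loci inside dynamin genes and are known in several cancers as miRNAs that restrain growth and migration. Their mature strands, from RefSeq (GRCh38.p14), are shown with the seed in capitals, since the seed is what the transfected strand brings into the cell, beside the opposite strand of the same hairpin.

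hsa-miR-199a-3p: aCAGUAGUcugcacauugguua

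hsa-miR-199b-3p: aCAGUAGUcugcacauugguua

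hsa-miR-199a-5p: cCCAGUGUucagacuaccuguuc

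Both 3p strands had the same 22 bases, so the label miR-199-3p names a single sequence. It is encoded by MIR199A1 (chr19:10817429-10817450), MIR199A2 (chr1:172144554-172144575) and MIR199B (chr9:128244745-128244766), all on the minus strand of GRCh38.p14. A probe of the array is 60 bases of sense sequence, so it can hold a target site itself. The site that pairs with the whole seed reads ACTACTG, and an A behind it, opposite the first base of the miRNA, gives the 8-base site ACTACTGA. The shorter match to bases 2 to 7 reads CTACTG. Each was searched on the strand of the probe, and ACTACTG was found in the probe of 0.416% of all genes on the array.

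Of 43317 genes on the array, 15686 were well above background in both channels, and all counts are of these genes. The 6 genes with the lowest ratios among those whose probe held the 7-base site are shown by the stretch of 30 bases around it (GRCh37, read along the transcript), with the match in capitals, because in these genes the measured sequence and the seed can be set side by side.

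lnc-DNASE1L3-1 (chr3:58148324-58148353, minus strand): ccattctaACTACTGttcaatgtctctgtt

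TCTEX1D2, now DYNLT2B (chr3:196018178-196018207, minus strand): ctACTACTGAatgaatctttgaaaagctgg

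TSPAN3 (chr15:77338532-77338561, minus strand): ggagtataatgtatgcACTACTGttttaaa

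PVRL2, now NECTIN2 (chr19:45392322-45392351, plus strand): actgttaacctggaagACTACTGAatcatt

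DIRC2, now SLC49A4 (chr3:122598516-122598545, plus strand): ctctgttttgtgccagtgctaaACTACTGA

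NDUFA12 (chr12:95387982-95388011, minus strand): tACTACTGAaatgaatggcaaaaacacatt

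Genes with a seed match in the probe were lower than genes without one, and more so the longer the match. The 19 genes with the 8-base site had a median of −0.18, and 17 of them were below 0. In the 44 genes with the 7-base site and no A behind it the median was −0.089, and 32 were below 0. The 48 genes with the 6-base site followed by A had a median of −0.071 and the 158 with the 6-base site alone a median of −0.028. The 15417 genes with no match had a median of 0.012, and 47.0% were below 0. Thus the order of the medians followed the length of the pairing. It is a description over the genes of 1 array.

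The difference was larger in the lower tail than at the median. Over all measured genes 429 were below −0.5, which is 2.73%, and 84 were below −1, which is 0.536%. Of the 63 genes with the 7-base site, with or without the A, 12 were below −0.5 (19.0%) and 6 below −1 (9.52%). Among the 19 genes with the 8-base site, 5 were below −0.5 and 4 below −1. No gene with the 7-base site was above 0.5, and the highest stood at 0.31, whereas 276 genes were above 0.5 over the whole array (1.76%). Most genes with a site were near 0: the quartiles of the 63 were −0.28 and −0.029. Read the other way, the 7-base site was in the probe of 0.402% of measured genes, of 2.80% of those below −0.5 and of 7.14% of those below −1. The remaining low genes had no site within the 60 bases measured; the rest of their transcripts was not searched here.

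The probes with the site were then read on the other arrays. Each array was read over its own genes well above background in both channels, so between 61 and 79 genes held the site. With miR-199-3p the median of genes with the 7-base site was lower than that of genes without a match by 0.14 on the log2 scale (a difference of −0.14). On the other 7 arrays this difference was between −0.054 with miR-532-3p and 0.0090 with miR-140-3p, and no gene with the site was below −1 on any of them. Below −0.5 were 7 of 61 genes with the site with miR-532-3p, where 3.84% of all genes were that low, 3 of 61 with miR-532-5p (4.92% against 3.67%) and 3 of 70 with miR-140-5p (4.29% against 2.89%). On the remaining 4 arrays at most 1 gene with the site was that low. Of the 12 matched genes below −0.5, 10 were lower with miR-199-3p than on each of the other 7 arrays. These 12 were chosen for low values on the miR-199-3p array, which favours such a count. The seeds of the other strands were also searched on the miR-199-3p array. The 82 genes whose probe held the site of miR-199a-5p had a median of 0.031 and none was below −0.5. For the seeds of the other 5 transfected miRNAs the medians were −0.010 (miR-532-5p, 71 genes), 0.0031 (miR-532-3p, 66 genes), 0.023 (miR-140-5p, 60 genes), 0.011 (miR-140-3p, 113 genes) and 0.029 (miR-125b-1-3p, 6 genes). The miR-199-3p site in the opposite direction, CAGTAGT, was in the probes of 47 genes with a median of 0.064. None of these other sites gave a median below that of the miR-199-3p site. With median centring in place of the intensity-dependent dye correction, the median of the 63 genes changed sign to 0.061 while that of genes without a match moved to 0.30, and the difference was −0.24.

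**Figure D1:**
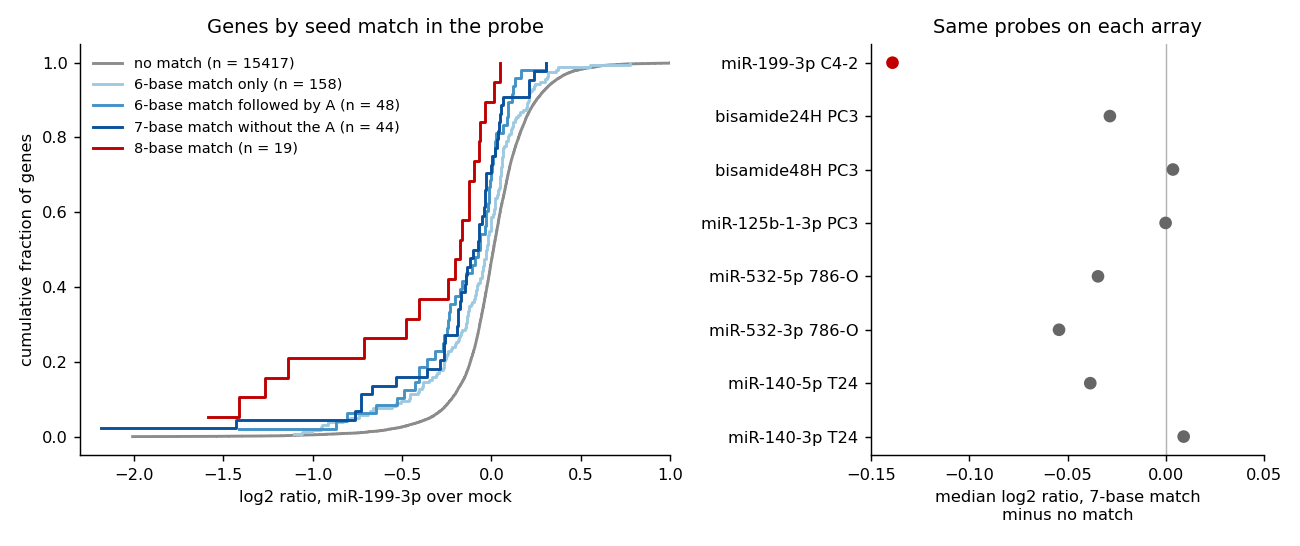
Left, cumulative fraction of genes (y axis) by log2 ratio of miR-199-3p over mock (x axis), for genes split by the seed match in their probe; right, the median of genes with the 7-base site minus that of genes with no match, on each array. The 8-base curve (19 genes) lies left of the others, and the miR-199-3p array stands at −0.14 where the other 7 lie between −0.054 and 0.0090.

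The matched genes had various roles. TSPAN3, a tetraspanin of the cell surface, was at −1.43, with a raw signal of 237 in Cy3 and 99.2 in Cy5. TCTEX1D2, a light chain of the dynein motor, was at −1.58 with raw signals of 140 and 37.2. PVRL2, the adhesion molecule nectin-2, was at −1.41 with 224 and 94.2. In these 3 genes the Cy5 signal was the lower in the raw data as well. DIRC2, a transporter of the lysosomal membrane, was at −1.27 with raw signals of 123 and 44.8. NDUFA12, a subunit of respiratory complex I, was at −1.14 with 602 and 398. The long noncoding transcript lnc-DNASE1L3-1 had the lowest ratio of all genes, −2.18, with raw signals of 651 and 183. Its values on the other arrays were between −0.96 and 0.15. TSPAN3 was between −0.088 and 0.55 on the other 7 arrays and DIRC2 between −0.21 and 0.21, so that neither reached below −0.5 without miR-199-3p. PVRL2 and TCTEX1D2 were down to −0.81 and −0.67 there.

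Other probes of these genes gave smaller ratios. A second probe, without the site, was measured for PVRL2 at −0.038, for DIRC2 at −0.14 and for NDUFA12 at −0.91. Which transcript forms these probes read was not determined here. Beyond the seed, the 8 target bases opposite bases 9 to 16 of the miRNA paired with 4 of them in TSPAN3, 3 in PVRL2 and 2 each in DIRC2 and lnc-DNASE1L3-1, counted without gaps. In TCTEX1D2 and NDUFA12 the site lay too near the probe's edge for this count.

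More genes were lower than higher with the dye correction. Past a log2 ratio of 1.5, 16 genes were lower (0.102% of 15686) and 3 were higher (0.0191%). The paper states this size for lower genes alone, after transfection of other miRNAs into PC3 cells. With median centring 1 was lower and 21 were higher, so the larger side depends on the scaling. Past 1.0, 84 were lower (0.536%) and 18 higher (0.115%). With that scaling 71 of the 429 genes below −0.5 turned above 0, and none of the 84 below −1 did. Most genes were near 0: 81.2% lay within 0.25 of 0, and the SD over genes was 0.24. Probes spotted 10 times on the array had a median SD of 0.055 between their spots, and 95% had an SD below 0.084, which covers the scatter within the array alone. In the raw data Cy5 exceeded Cy3 by a growing amount with brightness, with a median raw log2 ratio of 0.49 in genes with a mean log2 signal of 6 to 7 and 0.90 in genes from 12 upward. The dye correction removes this trend, so the ratio of bright genes lies below their raw Cy5 over Cy3. On 6 of the other 7 arrays these medians were 0.28 to 0.64 and 0.84 to 1.15. With miR-532-5p they were −0.20 and 0.15, and Cy5 lay below Cy3 up to a mean log2 signal of 12.

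**Figure D2:**
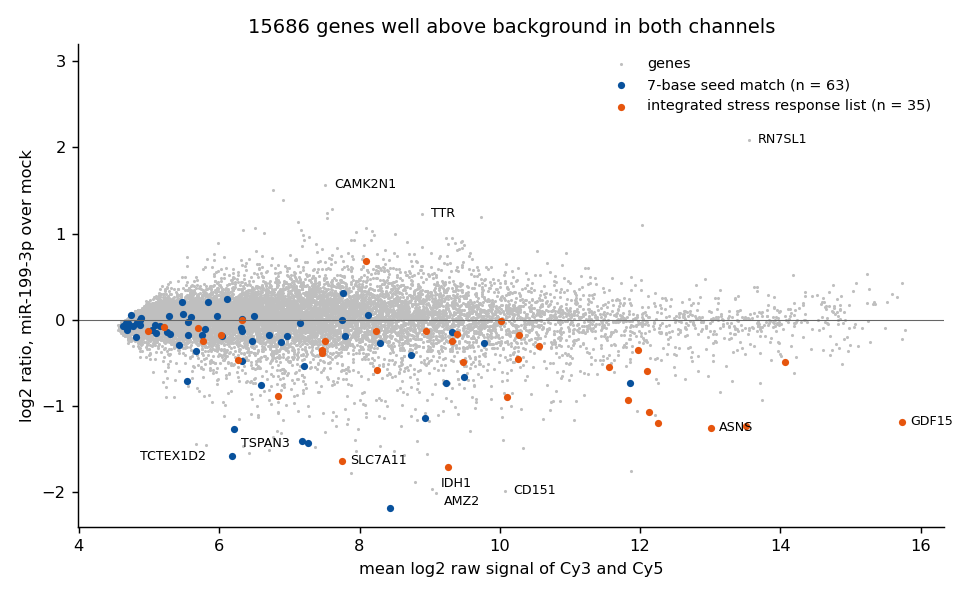
Log2 ratio of miR-199-3p over mock (y axis) against the mean log2 raw signal of both channels (x axis); each point is 1 of 15686 genes, with the 63 genes with a 7-base seed match in blue and the 35 genes of the integrated stress response list in orange. Blue points below −1 lie at low to middle signal, and the orange points reach −1 also among the brightest genes.

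The 16 lowest genes with a gene symbol are given by what they encode. CD151, a tetraspanin that binds laminin-binding integrins (chr11:838770-838829), was at −1.98, a 3.95-fold lower ratio, with raw signals of 1725 in Cy3 and 674 in Cy5. PXN, the focal adhesion scaffold paxillin (chr12:120648265-120648324), was at −1.57 with 584 and 272. APLP2, a membrane protein related to the amyloid precursor, was at −1.88 with 728 and 270. On the other 7 arrays CD151 ranged from −0.82 to 0.78, PXN from −0.44 to 0.83 and APLP2 from −0.81 to 0.42. Each was lower with miR-199-3p than on every other array, and each was chosen for its low value with miR-199-3p. SYNGR2, a vesicle protein of the synaptogyrin family, was at −1.75 and was the brightest of the 16, with raw signals of 5189 and 2674. Its 2 further probes gave −1.31 and −0.23. SPIRE1, which nucleates actin filaments, was at −1.52 with a second probe at −0.39. Averaged over their probes, SYNGR2 was at −1.10 and SPIRE1 at −0.96.

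Among the 16 was also IDH1, the cytosolic isocitrate dehydrogenase that makes NADPH (chr2:209101326-209101385). It was at −1.96 with raw signals of 875 and 316, against −0.11 to 0.25 on the other 7 arrays. MTHFD2, the mitochondrial folate enzyme of one-carbon metabolism, was at −1.70 with 917 and 410. SLC7A11, the cystine importer, was at −1.63 with 345 and 134. MTHFD2 and SLC7A11 ranged widely on the other arrays, from −1.12 to 1.26 and from −0.71 to 1.71, with the highest values under bisamide. CYB5A, cytochrome b5, was at −1.49 with 1717 and 970, and its second probe gave −1.38. PIGF, an enzyme of GPI anchor synthesis, was at −1.51.

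The others served different functions. RB1, the retinoblastoma protein that holds cells before S phase (chr13:49055845-49055904), was at −1.54 with raw signals of 158 and 46.8. It was below 0 on all of the other 7 arrays too, from −0.56 to −0.18. G3BP2, a stress granule protein, was at −1.52. VMA21, an assembly factor of the lysosomal proton pump, was at −1.78, but its second measured probe gave 0.11. AMZ2, a zinc peptidase, was at −2.01 and its 2 further probes gave −1.32 and −1.44. HINT3, a nucleotide hydrolase, was at −1.55. TCTEX1D2 alone among these 16 had a seed match in its probe. Across the 16 genes and the other 7 arrays, 1 of 112 values was below −1, that of MTHFD2 with miR-532-3p. The 16 were chosen for low values on the miR-199-3p array.

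Further probes of the low genes mostly pointed the same way with a smaller size. Of the 84 genes below −1, 29 had another probe well above background in both channels. These 38 probes had a median of −0.38, and 34 were below 0, 15 below −0.5 and 6 below −1. Below −1 were also C1QTNF5 (−1.47) and ACTL8 (−1.44), named after their values were seen. Their medians on the other 7 arrays were −1.68 and −1.51, and their highest values there were −0.68 and −1.025. These 2 probes thus gave low ratios on every array. Treated RNA was in Cy5 on each of them, and a dye effect was not tested.

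Among genes with a higher ratio, RN7SL1, the RNA of the signal recognition particle, stood highest at 2.09. Its raw signal was 4198 in Cy3 and 34470 in Cy5. RN7SL1 varied between −1.16 and 0.74 on the other arrays. CAMK2N1, an inhibitor of the kinase CaMKII, was at 1.56 with raw signals of 78.5 and 425. S1PR3, a receptor of sphingosine 1-phosphate, was at 1.39 with 54.3 and 269. MAP2, a microtubule-binding protein of neurons, was at 1.29 and IFI27L2 at 1.24. TTR, the thyroid hormone carrier transthyretin, was at 1.23, with raw signals of 242 and 932. It was not above background in both channels on any other array. NREP stood at 1.20 with a second probe at 0.12. MAP2 was measured on 3 of the other arrays. The 5 other genes named were measured on all of them and were higher with miR-199-3p than on each. The 7 were chosen for high values on the miR-199-3p array, which favours such a ranking. None of the 7 had a seed match in the probe. CYP26B1, which degrades retinoic acid, was well above background in Cy3 alone, with raw signals of 64.0 in Cy3 and 16.8 in Cy5. Taken from its Cy3 level over the higher of its own Cy5 level and the dimmest Cy5 level well above background, it was at least 2.05-fold lower with the dye correction. This bound equals its fitted ratio of −1.04, which was −0.89 with median centring.

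**Figure D3:**
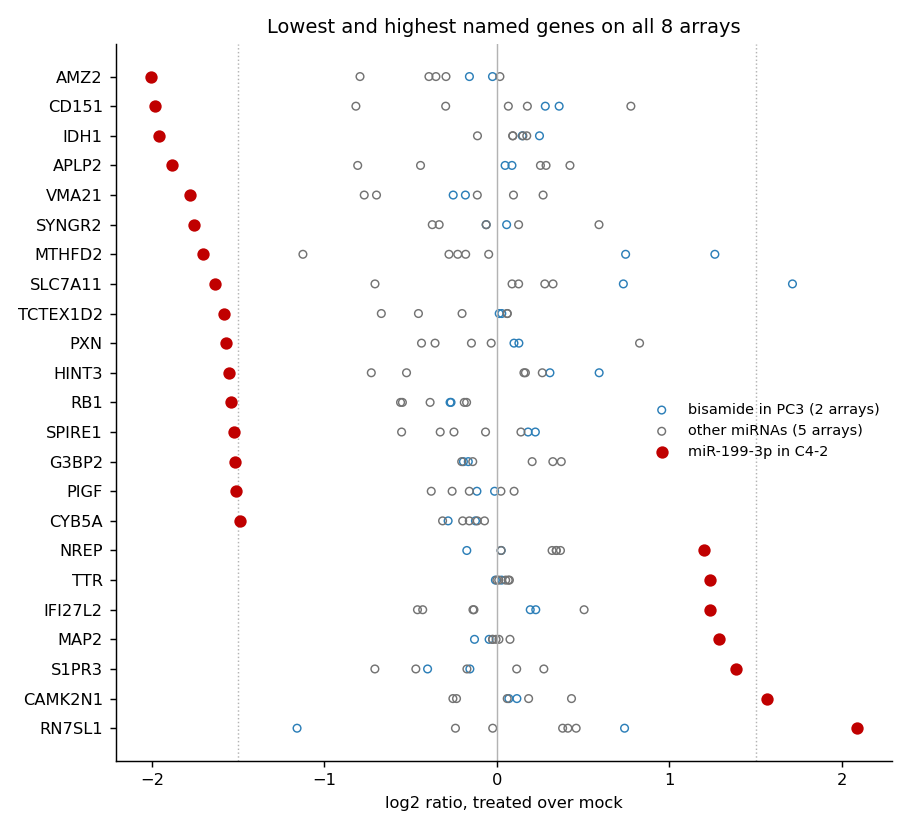
Log2 ratio of treated over mock (x axis) for the 16 lowest and 7 of the highest genes with a symbol on the miR-199-3p array (filled red), with the same probes on the 2 bisamide arrays (open blue) and the 5 other miRNA arrays (open grey); dotted lines mark 1.5 in each direction. The genes were chosen for the red values; the open points lie between −1.16 and 1.71.

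The integrated stress response list had the lowest median of the 19 lists. This response runs through ATF4, a transcription factor that is made when translation slows and that switches on amino acid import and synthesis. All 35 listed genes were measured, with a median of −0.38 against 0.010 for all genes. Below 0 were 34 of 35 and below −0.5 were 13, or 37.1%, where 2.73% of all genes were that low. Above 0.5 was 1 member, ALDH18A1 of proline synthesis, at 0.68. Besides MTHFD2 and SLC7A11, the lowest was ASNS, the asparagine synthetase, at −1.25 with raw signals of 9325 in Cy3 and 7266 in Cy5. With miR-532-5p ASNS was lower still, at −1.33, and on the other 4 miRNA arrays it was between −0.48 and 0.079. Further members named after their values were seen were NUPR1 (−1.23), TRIB3 (−1.20), GDF15 (−1.18), ATF3 (−0.93), PSAT1 (−0.89) and SLC7A5 (−0.88). PSAT1 was at −0.86 with miR-532-5p as well, and at 0.35 with miR-140-5p. ATF4 itself was at −0.49 and DDIT3, which encodes the factor CHOP, at −0.45. VLDLR was at −0.00016.

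Most of these genes were bright, and their values rest on the dye correction. With median centring ASNS was at −0.38, GDF15 at −0.099 and ATF4 at 0.46, and the list's median turned to 0.10 while that of all genes moved to 0.30. The list stayed below the median of all genes, and its sign changed. On the other miRNA arrays its median was between −0.16 and 0.049. On the bisamide arrays it was 0.91 at 24 h and 0.58 at 48 h. Of the 33 listed genes measured on each of these arrays, 6 were below −0.5 with miR-532-3p and 4 with miR-532-5p. Over all genes 3.84% and 3.67% were that low there. The miR-199-3p array had the lowest median and the most members below −0.5 of the 8, and cell lines and mock cultures differ between these arrays.

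**Figure D4:**
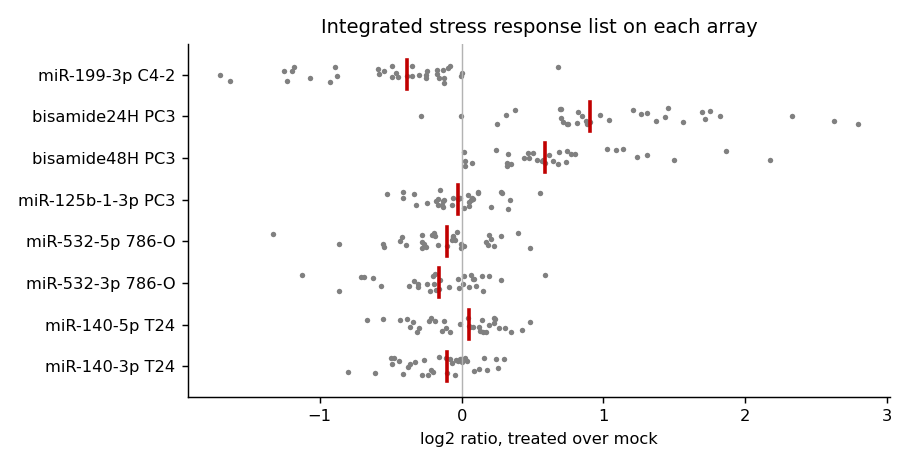
Log2 ratio of treated over mock (x axis) for the measured genes of the integrated stress response list on each array (y axis); points are genes, placed with a small random vertical shift, and red bars are medians. The median was −0.38 with miR-199-3p, 0.91 and 0.58 with bisamide and between −0.16 and 0.049 on the other 5 arrays.

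Both lists of protein folding genes had medians below 0 with the dye correction. The list of endoplasmic reticulum chaperones had a median of −0.18 over 23 measured genes, with 2 below −0.5 (8.7%, against 2.73% of all genes). ERO1L, the oxidase that drives disulfide formation, was at −1.05, DNAJB11 at −0.60 and DNAJC10 at −0.47, while HSPA5, the chaperone BiP, was at 0.27 and TXNDC5 at 0.32. The list of HSF1 and cytosolic heat shock genes had a median of −0.13 over 20 genes. Of these, 4 were below −0.5 (20.0%) and none above 0.5. HSP90AA1 was at −0.84, HSPD1 at −0.71 and HSPA1B at −0.60, whereas HSP90AB1 was at 0.40 and FKBP4 at 0.38. Further probes gave −1.02 and −0.90 for HSP90AA1 and 0.29 for HSP90AB1. With median centring HSP90AA1 was at 0.044, HSPD1 at 0.18, HSPA1B at 0.26 and HSP90AB1 at 1.04, and the lists' medians were 0.45 and 0.38, above the 0.30 of all genes. On the other 7 arrays the medians of these lists were between −0.14 and 0.077 and between −0.20 and 0.057.

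Genes known from the literature as targets of miR-199a-3p were mostly dim or near 0. Of 18, 11 were measured, with a median of −0.14, 8 below 0 and 1 below −0.5 (9.09%, against 2.73% of all genes). The lowest was AURKA, the mitotic kinase, at −0.53, whose probe held the 6-base site followed by A. On the other 7 arrays AURKA ranged from −0.51 with miR-532-5p to 0.28 with miR-140-3p. MTOR, the growth kinase, was at −0.42, with raw signals of 105 and 96.5. PAK4, a kinase of the actin skeleton, was at −0.27, ZHX1 at −0.27, HOMER1 at −0.19, TAOK1 at −0.14, CFL2 at −0.039 and DNMT3A at −0.019. ETNK1 was at 0.036, SMARCA2 at 0.050 and CLIC5 at 0.14. The receptor MET was well above background in Cy3 alone, at a raw signal of 27.9, and BTRC in Cy5 alone. CD44, CAV2, ITGA3, PTGS2 and ITGB8 were above background in neither channel, so these cells gave no measure of them. On the other 7 arrays the list's median was between −0.12 and 0.065.

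Adhesion and receptor lists had single low genes and medians near that of all genes. Over all genes 0.536% were below −1, 2.73% below −0.5 and 1.76% above 0.5. Of 19 measured tetraspanins, CD151 and TSPAN3 were below −1 (10.5%) and none was above 0.5, with a median of −0.0055. TSPAN6, whose probe held the 8-base site, was at −0.48, and CD9 and TSPAN13 were highest at 0.34 each. None of the 9 measured integrin subunits passed 0.5 in either direction: ITGA6 was at −0.48, ITGAV at −0.13, ITGA7 at −0.099, ITGB1 at 0.37 and ITGB2 at 0.49, with a median of 0.056. In the focal adhesion and actin list PXN was the only 1 of 37 below −0.5 (2.7%, median 0.038). DIAPH1 followed at −0.37, and RHOB and RHOC were highest at 0.48 and 0.37. Of 19 receptor tyrosine kinases (median 0.073) PDGFRB alone was below −0.5 (5.26%), at −0.89. The median of PDGFRB on the other arrays was −0.75. EGFR was at −0.38, FGFR1 at −0.18, ROR1 at 0.30 and IGF1R at 0.42.

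In the PI3K, AKT and mTOR list 3 of 34 were below −0.5 (8.82%) and 1 above 0.5 (2.94%), with a median of 0.0059. Over all genes these shares were 2.73% and 1.76%. EIF4E, which binds the cap of messenger RNAs, was at −1.15 with further probes at −0.37 and −0.19, DDIT4, an inhibitor of mTOR that is also in the stress list, at −1.07 and EIF4EBP1, which holds EIF4E inactive, at −0.59. RPS6KB2 was at 0.60 and PIK3R2 at 0.35. The list of citric acid cycle enzymes and isocitrate dehydrogenases had a median of −0.054 over 30 genes, and IDH1 alone was below −0.5. ME2 was at −0.44 and FH, the fumarase, whose probe held the 7-base site, at −0.26, with PDHB and PDHA1 highest at 0.42 and 0.34. FH ranged from −0.62 with miR-532-3p to −0.041 on the other 7 arrays. In cholesterol synthesis, with a median of 0.071 over 27 genes, SCD was at −0.99, TM7SF2 at −0.73 and FDFT1 at −0.37, while INSIG1 was at 0.95 and MVK at 0.40. Of 39 lysosomal genes (median 0.027), 3 were below −0.5 (7.69%) and 1 above 0.5 (2.56%). CTSZ was at −0.76, ATP6AP1 at −0.53, CTSL at −0.51, ASAH1 at 0.53 and LAMP2 at 0.35. The sign of some low genes in these lists rests on the dye correction. With median centring EIF4EBP1 was at 0.14, FH at 0.25, FDFT1 at 0.23, ATP6AP1 at 0.038 and CTSL at 0.0056. EIF4E, DDIT4, IDH1, ME2, SCD, TM7SF2 and CTSZ stayed below 0.

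Cell cycle lists had medians near 0. Over all genes 2.73% were below −0.5 and 1.76% above 0.5. In the S phase list, with a median of −0.053 over 47 genes, RRM1 was at −0.74, RPA2 at −0.58 and MCM6 at −0.48, and GINS1 at 0.78 and CCNE2 at 0.45. Of 48 genes of G2 and mitosis (median 0.024), 6 were below −0.5 (12.5%) and 1 above 0.5. PRC1, which bundles the midzone of the spindle, was at −1.23, MAD2L1 at −0.74 and CKS1B at −0.61, with KIF20A at 0.63 and HMMR at 0.40. On the other 7 arrays PRC1 ranged from −0.54 to 0.43 and MAD2L1 from −0.80 to −0.12. No gene of the p53 and CDK inhibitor list passed 0.5 in either direction over 32 measured (median 0.017): PLK3 was at −0.48, TP53INP1 at −0.29, CDKN1A at −0.25, FAS at 0.25 and CDKN2C at 0.26.

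The interferon list, which covers genes that answer foreign RNA, had a median of 0.077 over 30 genes. Of these, 1 was below −0.5 (3.33%) and 2 above 0.5 (6.67%), against 2.73% and 1.76% of all genes. IFI6 was at 0.60, TAP1 at 0.51, ADAR at −0.63, ISG20 at −0.20 and HERC5 at −0.14. The machinery of miRNA processing and silencing had the highest median of the 19 lists, 0.14 over 24 genes, with 3 below −0.5 (12.5%). On the other 7 arrays this list's median was between 0.021 and 0.16. CNOT7, a deadenylase subunit, was at −1.06 with a second probe at −0.27, DCP2, the decapping enzyme, at −0.79 and PRKRA at −0.74. TNRC6C and MOV10 were highest at 0.42 and 0.40, and their medians on the other 7 arrays were 0.48 and 0.0016. The dynamin genes that hold the miR-199 loci were at 0.014 (DNM1), −0.35 (DNM2) and 0.047 (DNM3), and DNM3OS, the transcript of the opposite strand of DNM3, was at −0.13. The array does not measure the mature miRNA, so its uptake was not checked here. Epithelial and mesenchymal markers had a median of −0.0063 over 20 genes, with CLDN7 at −0.61, EPCAM at −0.47, FN1 at −0.22, GRHL2 at 0.38 and TJP1, whose probe held the 6-base site, at 0.77.

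**Figure D5:**
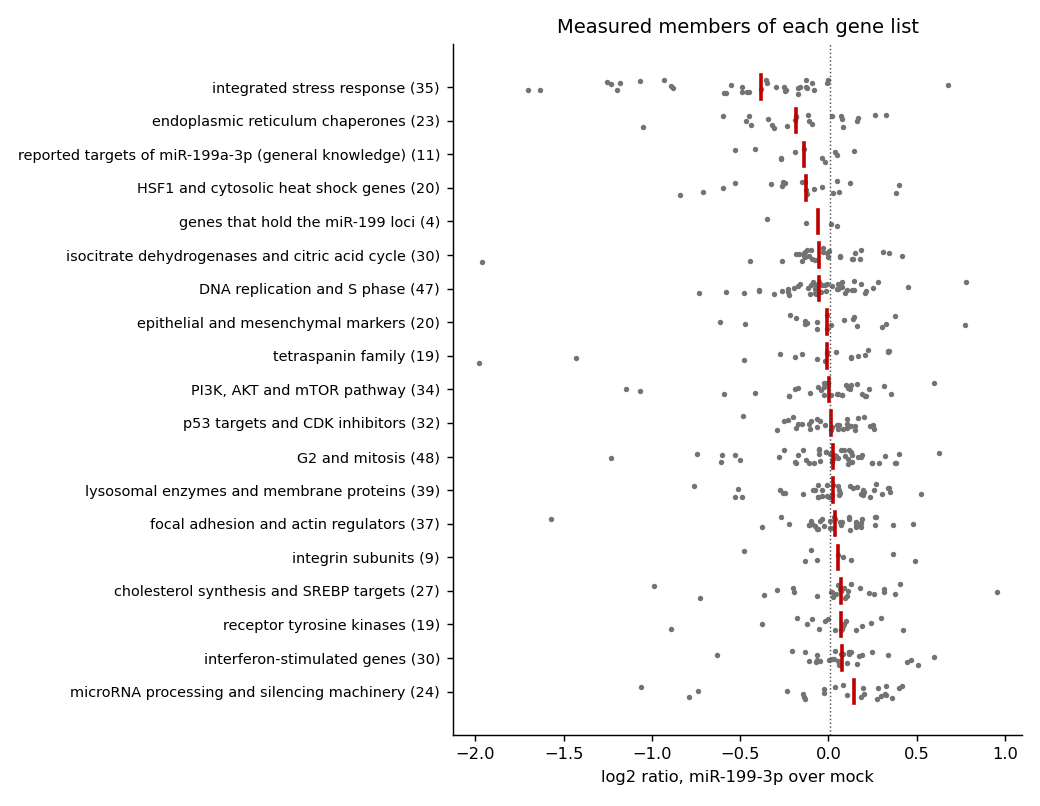
Log2 ratio of miR-199-3p over mock (x axis) for the measured members of 19 gene lists (y axis, with their number); points are genes with a small random vertical shift, red bars are medians, and the dotted line is the median of all genes, 0.010. The integrated stress response list lies lowest at −0.38, and the other medians lie between −0.18 and 0.14.

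The labelled cell type was checked against marker genes. Of 16 luminal prostate genes on the array, 16 were well above background in Cy3 and 15 in Cy5, ACPP in Cy3 alone, with a median of −0.13. Of 8 bladder and 8 renal markers 2 each were measured, with medians of 0.043 and 0.38, and of 8 fibroblast and 5 leukocyte markers 2 each, with medians of −0.26 and 0.055. The genes measured were UPK3A and PPARG, NNMT and LRP2, COL1A1 and PDGFRB, and PTPRC and CD3E. NNMT was at 0.60. Others of these lists, such as COL3A1, DCN, CD14, UPK2 and PAX8, were above background in neither channel.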

How the data were processed

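Total RNA was amplified, labelled and hybridised to Agilent two-colour arrays. The deposited scanner files, made with Agilent Feature Extraction 11.5.1.1, give per spot the mean and background intensity of each channel, which the authors did not normalize further, and a log10 ratio of Cy5 over Cy3; the deposited series table held the same log10 ratios. Probe positions are on GRCh37 per the file headers. From the intensities, background was corrected with normexp (offset 50) and the dye trend with loess within each array (limma 3.58.1, R 4.3.3), with control spots at weight 0 and outlier spots left out. Spots of a probe were averaged and each gene was read from its probe with the highest mean signal over the 8 arrays. On a simulated array the offset drew ratios toward 0. Genes named were the 16 lowest and 8 highest with a symbol, the 6 lowest with a seed match, those in 1 channel alone with a bound over 1.0, all reported targets and host genes, and the 3 lowest and 2 highest of each other list. The members and the 20 gene lists and 5 marker lists were chosen with earlier results of these data known. Some genes and 1 gene list are not reported here. Current symbols came from RefSeq, which matched the accession of 21902 of 43317 genes. The number of arrays limits the precision. Alternatives were the background method, median centring, the scanner's ratio, the filter, the probe rule, the match length and subtraction of the other arrays. The searches for other seeds and for the reversed site were added after seeing the data.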

Additional observations from a re-analysis of the deposited data

How the results depend on the processing

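No paired analysis was possible because 1 array alone carried miR-199-3p. The 16 lower and 3 higher genes past 1.5 became 84 and 20 with a normexp offset of 0, 88 and 24 with plain background subtraction, 40 and 7 with no background correction, 122 and 32 with the scanner's own ratio and equally with the series table, and 84 and 18 with the threshold at 1.0. Median centring gave 1 lower and 21 higher, which turned the share of lower calls from 84.2% to 4.55%. All 19 genes kept their direction under every alternative run, although 4 of them stayed past 1.5 with median centring. The median of genes with the 7-base seed match, −0.13, was −0.31 with an offset of 0, −0.31 with plain subtraction, −0.21 with no correction, −0.34 with the scanner's own ratio and with the series table, 0.061 with median centring, −0.0079 when undetected genes were kept and −0.054 with the 6-base match. Genes without a match moved from 0.012 to 0.30 with median centring. Reading all probes in place of 1 a gene, an alternative chosen after seeing the data, gave −0.12 over 78 probes. Of the values of 135 named genes under the alternatives 610 of 1476 moved by less than the 0.055 between repeated spots, and none of the called genes reversed. Some of the other named genes turned from below 0 to above 0 with median centring. Among them were HSPD1 (0.18), CKS1B (0.16), EPCAM (0.14), TP53INP1 (0.13), EGFR (0.084) and DNM2 (0.039). Others, such as PRC1 (−0.69) and MTOR (−0.063), stayed below 0. An offset shrinks the ratio of a dim gene by its construction, so such genes are understated. With 1 array no biological spread was measured.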
